A study of Mus musculus with 55 samples.

Results

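The 39 genes described here are transcripts that interferons induce. They were chosen by symbol from a table of FPKM (fragments per kilobase of transcript, scaled to library size) of cell populations sorted from mouse liver. All 39 symbols were found among the 24478 symbols of the table, and 14 of them have more than 1 row, of which the most abundant stands for the gene. By role, the genes are 5 transcription factors (Irf1, Irf7, Irf8, Irf9 and Stat2), 4 sensors of viral nucleic acid (Ifih1, Ddx58, Dhx58 and Zbp1), 17 antiviral effectors, the feedback inhibitor Usp18, 9 immunity GTPases (Gbp2, Gbp3, Gbp4, Gbp5, Gbp6, Gbp7, Igtp, Irgm1 and Iigp1) and 3 genes of antigen processing (Psmb8, Psmb9 and Tap1). The study compared 10 populations between normal liver and liver after partial hepatectomy, the surgical removal of part of the organ that starts regeneration, in 55 libraries (27 normal and 28 after hepatectomy). All mice were of the strain given as C57B/L6, without a genetic or drug intervention in the labels. Time after surgery, age, sex, sorting markers and whether animals were pooled are not given in the sources used here.

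The populations were hepatocytes (HC, 4 normal and 4 hepatectomy libraries), biliary epithelial cells (BEC, 4 and 2), clonal biliary epithelial cells (cBEC, 4 and 2) and cells of non-progenitor ducts (NPD, 2 and 2). Endothelium was represented by liver sinusoidal endothelial cells (LSEC, 3 and 5) and by a sort given as endothelial cells (EC, 2 and 3). The remaining sorts were Kupffer cells (KC, the resident macrophages of liver sinusoids, 2 and 3), hepatic stellate cells (HSC, the vitamin A-storing pericytes, 2 and 3), Thy1 cells (2 and 2) and blood cells from the liver (2 and 2). Nothing in the labels ties the libraries of a group to separate animals, so p-values measure only the spread between these libraries, which may be technical. 1 library titled as cBEC after hepatectomy (replicate 1) carries the treatment tag normal and was kept as titled.

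Type I interferons (interferon-alpha and interferon-beta) and type III interferons (interferon-lambda) signal through Jak1 and Tyk2 to a complex that holds Stat2 and Irf9 and binds the interferon-stimulated response element. Interferon-gamma, made mainly by T and NK cells, acts through the gamma-activated site and induces Irf1, which in turn activates GTPase and antigen-processing genes. The effectors bind viral RNA (Ifit and Oas proteins), block replication or budding (Mx1, Mx2, Rsad2, Bst2) or tag proteins (Isg15). The guanylate-binding proteins (Gbp) and immunity-related GTPases (Igtp, Irgm1, Iigp1) take part in defence against intracellular pathogens.

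Promoter sequences are shown first because these motifs are the part of the genes that interferon signalling reads. RefSeq promoter windows, from 250 bases before to 50 bases after a gene's start on GRCm38.p6, were matched by symbol for 28 of the 39 genes. Iigp1, Rtp4, Mx1, Mx2, Parp14, Gbp4, Gbp6, Zbp1, Usp18, Dhx58 and Oas2 had no entry. The response element was searched on both strands as a pair of GAAA blocks with any 2 bases between them, and the gamma-activated site as TTCNNNGAA, which is its own reverse complement. Matches of the 2 motifs may overlap. The GAAA pair occurred in 16 of the 28 genes (57.1%), against 3.99% of all 27025 symbols with a window, and TTCNNNGAA in 9 (32.1%), against 9.55% of those symbols. A symbol counts once where any of its windows holds the motif. Of all 32851 windows, 3.44% held the GAAA pair and 8.30% TTCNNNGAA. Both motifs were found in 5 genes and neither in 8. The GAAA pair was present in 6 of 6 GTPases, 7 of 12 effectors, 2 of 2 sensors, 1 of 5 transcription factors and 0 of 3 antigen-processing genes. The 6 windows below cover genes whose values recur in the results, in capitals where a motif lies. Gbp2 at chr3:142620413-142620712 (plus strand) has 1 GAAA pair beginning at -59 from the start, read on the opposite strand. Gbp3 at chr3:142559794-142560093 (plus strand) has overlapping GAAA pairs at -45 and -39, on the opposite strand. Igtp at chr11:58199306-58199605 (plus strand) has TTCNNNGAA at -45 and a GAAA pair at -34. Irf1 at chr11:53769764-53770063 (plus strand) has only TTCNNNGAA, at -90. Isg15 at chr4:156200769-156201068 (minus strand) has 3 overlapping GAAA pairs beginning at -78, -72 and -66. Ifit1 at chr19:34640639-34640938 (plus strand) has GAAA pairs at -104 and -85, both on the opposite strand.
Gbp2: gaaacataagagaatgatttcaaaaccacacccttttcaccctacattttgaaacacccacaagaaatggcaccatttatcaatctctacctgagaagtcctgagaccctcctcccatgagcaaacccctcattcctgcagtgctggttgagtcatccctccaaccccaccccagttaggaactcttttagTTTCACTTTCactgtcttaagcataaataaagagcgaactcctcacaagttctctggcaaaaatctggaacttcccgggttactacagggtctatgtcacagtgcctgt
Gbp3: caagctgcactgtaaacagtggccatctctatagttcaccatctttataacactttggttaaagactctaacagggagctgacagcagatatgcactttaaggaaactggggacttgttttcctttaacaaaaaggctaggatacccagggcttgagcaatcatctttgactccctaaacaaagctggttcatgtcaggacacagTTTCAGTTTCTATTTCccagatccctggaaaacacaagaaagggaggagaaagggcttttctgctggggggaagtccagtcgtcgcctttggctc
Igtp: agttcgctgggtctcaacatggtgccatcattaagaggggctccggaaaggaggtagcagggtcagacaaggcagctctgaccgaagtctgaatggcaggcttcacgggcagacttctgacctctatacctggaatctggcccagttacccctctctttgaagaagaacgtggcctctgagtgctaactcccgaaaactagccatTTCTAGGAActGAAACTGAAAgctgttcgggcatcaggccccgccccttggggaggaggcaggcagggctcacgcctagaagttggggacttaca
Irf1: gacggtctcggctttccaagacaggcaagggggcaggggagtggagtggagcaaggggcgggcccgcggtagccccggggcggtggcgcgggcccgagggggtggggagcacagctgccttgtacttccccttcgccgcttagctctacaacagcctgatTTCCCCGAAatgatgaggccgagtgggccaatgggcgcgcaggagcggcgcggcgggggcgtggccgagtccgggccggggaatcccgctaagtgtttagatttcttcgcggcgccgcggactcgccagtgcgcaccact
Isg15: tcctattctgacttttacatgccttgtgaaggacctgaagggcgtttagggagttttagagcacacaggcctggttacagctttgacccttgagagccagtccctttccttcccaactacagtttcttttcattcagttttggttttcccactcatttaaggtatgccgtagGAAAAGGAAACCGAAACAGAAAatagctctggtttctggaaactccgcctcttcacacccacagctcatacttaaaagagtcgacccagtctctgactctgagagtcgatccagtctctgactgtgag
Ifit1: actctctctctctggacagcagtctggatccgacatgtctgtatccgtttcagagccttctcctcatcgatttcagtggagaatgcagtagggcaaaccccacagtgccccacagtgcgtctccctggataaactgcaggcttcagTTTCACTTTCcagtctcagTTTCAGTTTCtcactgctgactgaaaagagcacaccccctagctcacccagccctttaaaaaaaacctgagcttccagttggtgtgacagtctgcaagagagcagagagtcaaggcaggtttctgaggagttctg
A match describes these letters only, and no binding was measured.

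Several of the genes lie in tandem families, with coordinates below as the table gives them on mm9. Gbp5, Gbp7, Gbp3 and Gbp2 lie on chromosome 3 between 142159898 and 142300972, and Gbp4 and Gbp6 on chromosome 5 between 105544786 and 105722718. Oasl2 and Oasl1 lie on chromosome 5 between 115346943 and 115387920, and Oas2, Oas3 and Oas1a between 121180342 and 121357534. Ifit2, Ifit3 and Ifit1 lie on chromosome 19 between 34625184 and 34724499, Mx1 and Mx2 on chromosome 16 between 97668644 and 97782506, and Psmb9, Tap1 and Psmb8 on chromosome 17 between 34319044 and 34338399. How reads shared by such copies were assigned is not given in the sources used here, so the split of values within a family is uncertain.

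The libraries summed to between 624726 and 1203197 FPKM. Each sort named after a cell type had a group mean above 0 FPKM for every measured marker of that type. Sorts of another type can meet this too, so it does not show how pure a sort is. For these types all listed names were measured except for Kupffer cells, with 6 of 7, where Adgre1 and Emr1 name the same gene. The sorts were not free of other cells: the 5 mesothelial markers summed to 5468 to 6024 FPKM in normal NPD, and the 6 endothelial markers to 924.9 to 932.9 FPKM in normal Thy1 cells. Zeros are frequent outside hepatocytes for transcripts that hepatocytes make in quantity. Of the 39 genes, 24 averaged under 10 FPKM in both hepatocyte groups, and 25 of 1833 values outside hepatocytes were 0. Iigp1, with a hepatocyte mean of 109 FPKM in normal liver, is 0 in 1 Kupffer-cell library after hepatectomy. Differences were tested with limma on log2(FPKM + 1), within each population, for genes of at least 1 FPKM in as many libraries as the smaller group, with Benjamini-Hochberg adjustment over all genes tested. A gene is called where its adjusted p is under 0.05. Changes are differences on this log2 scale, which understates those of genes near or under 1 FPKM.

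In normal liver most of the 39 genes had their highest mean in blood or Kupffer cells and their lowest in hepatocytes. Blood cells had the highest mean for 15 genes, Kupffer cells for 12, stellate cells for 7, NPD and EC for 2 each and Thy1 cells for 1. Hepatocytes had the lowest mean for 30. Of all genes, 60.6% were called higher in BEC than in hepatocytes, with a median difference of 1.0 on the log2 scale. For 26 genes every library of the highest population lay above every library of the others. This was not counted over all genes. The mean of the 39 log2(FPKM + 1) values was 5.70 in Kupffer cells, 5.49 in blood cells, 5.02 in stellate cells, 4.92 in EC, 4.80 in LSEC, 4.58 in Thy1 cells, 4.22 in NPD, 3.83 in BEC, 3.70 in cBEC and 2.62 in hepatocytes. All 39 differed among the 10 populations (limma F test, adjusted p from 4.02e-15 to 0.00486, where 93.3% of all genes tested were called).

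**Figure D1:**
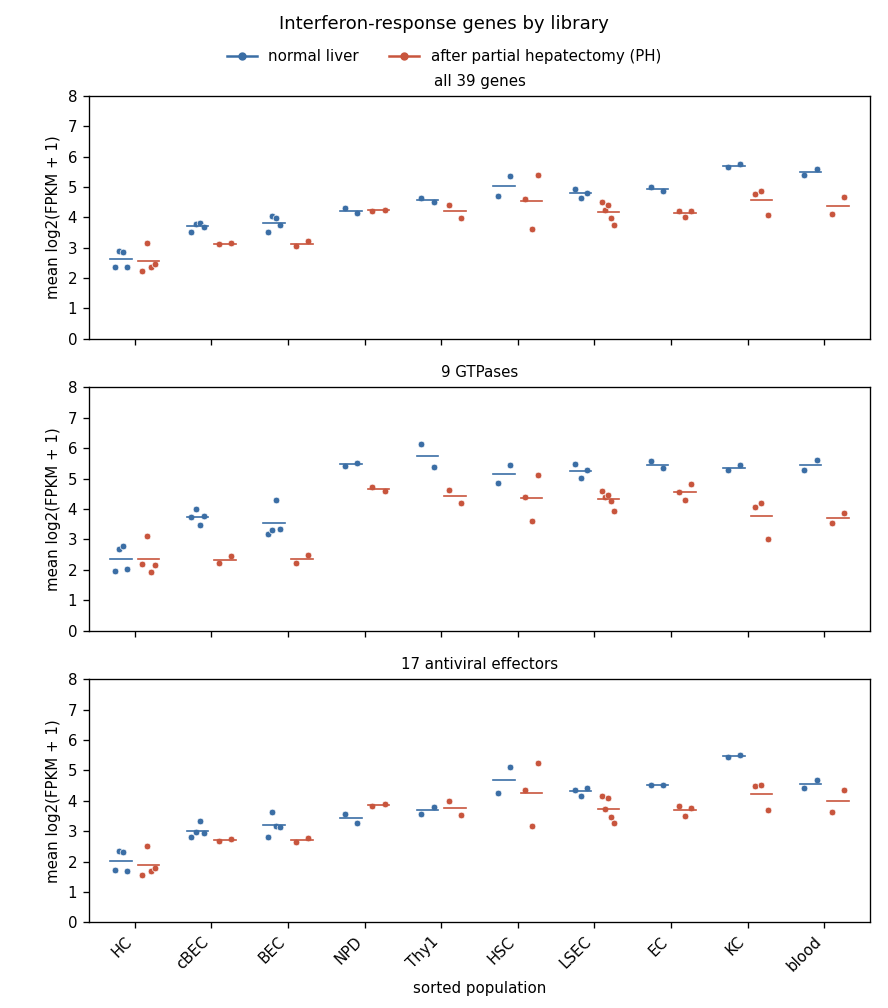
Mean log2(FPKM + 1) of all 39 genes, of the 9 GTPases and of the 17 antiviral effectors in each library, by population, with normal liver in blue and liver after hepatectomy in red. Points are libraries and lines are group means. Kupffer and blood cells of normal liver are highest for the 39 genes (5.70 and 5.49) and hepatocytes lowest (2.62).

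Among the transcription factors, Irf8, which directs monocyte and dendritic-cell development, was at 809 and 539.5 FPKM in the normal blood-cell libraries and 89.3 and 86.02 FPKM in Kupffer cells. Both blood libraries lay far above every other library. Irf7, the regulator of interferon-alpha genes, had the opposite order, with 393 and 370.3 FPKM in Kupffer cells and 200.3 and 197 FPKM in blood cells. Irf1 and Stat2 were highest in blood cells too, but did not stand apart, since a cBEC library lay between the blood-cell libraries for Irf1 and a Kupffer-cell library did for Stat2. Irf9, the DNA-binding partner of Stat2, was highest in blood cells at 96.7 and 104 FPKM, above all other libraries.

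The sensors divided between populations. Dhx58 was highest in Kupffer cells (44.97 and 46.8 FPKM), Ddx58 in blood cells (42.5 and 49.6 FPKM) and Ifih1 in stellate cells (33.5 and 46.3 FPKM), each above every library of the other populations. Ifih1 was lowest in blood cells, at a mean of 7.64 FPKM, rather than in hepatocytes. Zbp1, a sensor of Z-form nucleic acid that can start necroptosis, reached 60.9 and 76.4 FPKM in blood cells and 51.4 and 69.3 FPKM in Kupffer cells, which overlapped.

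The effectors had 3 main sites. Mx1, Oas1a, Oas2, Oas3, Oasl1, Ifit2, Rsad2, Parp14 and Rtp4 were highest in Kupffer cells, and all but Rtp4 stood above every other library there. Oas3 was at 27.1 and 26.7 FPKM in Kupffer cells and 20.6 and 24.5 FPKM in blood cells. Ifit1, Ifit3, Isg15, Mx2 and Xaf1 were highest in stellate cells, with Isg15, the ubiquitin-like modifier, at 111 and 203 FPKM there. Ifit1, Isg15 and Xaf1 stood apart in stellate cells, and Ifit3 and Mx2 did not. Oasl2 was highest in NPD (120.1 and 206 FPKM), above its next population, stellate cells, at a mean of 64.9 FPKM. Ifi44 and Bst2 were highest in EC, with Bst2, the tethering protein of budding virions, at 724 and 602 FPKM in EC and 700, 488 and 587 FPKM in LSEC, which overlapped.

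Among the GTPases, Gbp4, Gbp7 and Igtp were highest in blood cells with no overlap, and Gbp6 and Irgm1 were highest there with overlap. Gbp2 was an exception, with 522 and 528 FPKM in NPD against 333 and 143 FPKM in Thy1 cells and 1.28 FPKM or less in hepatocytes. Iigp1 was highest in stellate cells, at 179 and 138 FPKM, but its hepatocyte libraries spanned 51.3, 178, 168 and 38.97 FPKM and overlapped them. Psmb8 and Psmb9, catalytic subunits of the immunoproteasome, and Tap1, a subunit of the peptide transporter for class I presentation, were all highest in blood cells. Psmb8 was at 621 and 557 FPKM in blood cells and 141 and 150.3 FPKM in Kupffer cells, with no overlap.

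**Figure D2:**
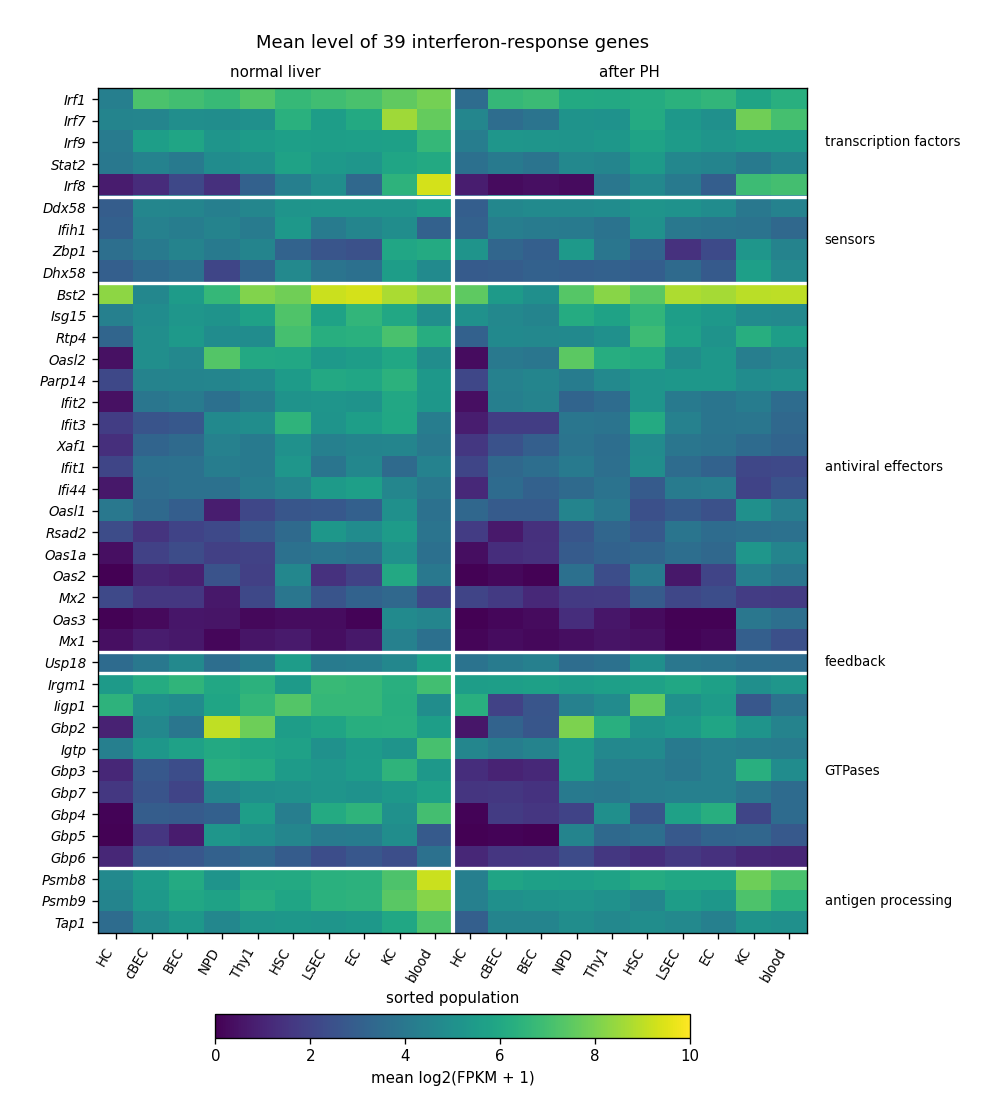
Group mean log2(FPKM + 1) of the 39 genes, grouped by role, in the 10 populations of normal liver (left) and of liver after hepatectomy (right). Irf8 and Psmb8 stand out in normal blood cells (means of 674 and 589 FPKM), Irf7 in normal Kupffer cells (382 FPKM) and Gbp2 in normal NPD (525 FPKM).

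Neighbouring populations in normal liver were then compared within 1 fit of all normal groups. Between blood and Kupffer cells 18 of 39 genes were called, 9 in each direction, against 43.9% of all genes, so the count itself is near the background, and without any 1 of these 4 libraries (blood or Kupffer, 1 or 2) it was 10 to 11. With quantile normalization 7 were higher in blood cells and 16 in Kupffer cells. Higher in blood cells were Irf8 2.90, Psmb8 2.01, Gbp4 1.93 and Igtp 1.90 on the log2 scale, together with Gbp6, Tap1, Usp18, Irf9 and Psmb9. Higher in Kupffer cells were Gbp5 (-2.04 in blood relative to Kupffer cells), Oas2 (-2.03) and Ifih1 (-1.78), with Ifit3, Oas1a, Oasl1, Parp14, Oasl2 and Dhx58. The effectors that differed were all higher in Kupffer cells, and the 3 antigen-processing genes all higher in blood cells. Between Kupffer cells and LSEC, 11 genes were called, all higher in Kupffer cells (10.4% of all genes were called in that direction and 9.1% in the other), led by Oas2 4.61, Oas3 4.47, Mx1 4.02, Zbp1 3.30, Irf7 3.02 and Oasl1 2.27. Without the second normal Kupffer-cell library the count was 7.

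Between LSEC and BEC, 20 genes were higher in LSEC (46.5% of all genes were called and 15.1% were higher in LSEC), with changes of Bst2 3.71, Gbp5 3.37, Rsad2 3.29, Gbp4 3.23 and Gbp7 3.18 on the log2 scale, and only Zbp1 was higher in BEC (-1.85 in LSEC relative to BEC). Between BEC and hepatocytes, 29 genes were higher in BEC, against 60.6% of all genes called in that direction, and Bst2, Iigp1 and Oasl1 were higher in hepatocytes. These counts of 29 and 3 became 19 and 5 with upper-quartile scaling and 13 and 9 with quantile normalization. Oasl2 was 4.22 higher in BEC, Ifit2 3.72, Ifi44 3.07, Gbp2 2.98 and Gbp4 2.77. All genes together had a median difference of 1.0 between BEC and hepatocytes, and the 39 genes 1.28, which became 0.59 with upper-quartile scaling and 0.15 with quantile normalization. The 29 include Dhx58, Gbp3, Ifih1, Ifit3 and Irf8, which changed direction under quantile normalization.

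After hepatectomy the order of populations was different for many of the genes. The highest population was the same as in normal liver for 19 of 39. Stellate cells had the highest mean for 14 genes, Kupffer cells for 11 and NPD for 6. LSEC had it for 3, blood cells and EC for 2 each and BEC for 1. The highest population stood apart from all other libraries for 9, which was not counted over all genes either. The mean of the 39 log2 values was 4.57 in Kupffer cells, 4.54 in stellate cells, 4.38 in blood cells, 4.24 in NPD, 4.20 in Thy1 cells, 4.17 in LSEC, 4.14 in EC, 3.14 in BEC, 3.12 in cBEC and 2.55 in hepatocytes. After hepatectomy 33 of 39 differed among populations (90.1% of all genes tested were called). Mx2 (adjusted p = 0.546), Igtp (0.473), Gbp6 (0.304), Irgm1 (0.155), Usp18 (0.0932) and Isg15 (0.0758) did not pass the limma F test. Without the second hepatectomy library of stellate cells, 38 of 39 passed.

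Across the 10 comparisons of hepatectomy with normal liver, 363 pairs of gene and population were tested, of which 57 were called lower and 3 higher, beside 7.61% and 5.75% of the pairs of all genes. Kupffer and blood cells, where 20.1% and 39.7% of all genes were called lower, supplied 44 of the 57. A change below 0 was found in 298 pairs, beside 54.5% of the pairs of all genes. At least 1 fall was called for 34 genes, and falls in at least 2 populations for 16. Falls in at least 3 were called for Gbp2, Gbp7, Igtp, Iigp1, Irf1 and Zbp1. These counts per gene were not made over all genes. Only Oasl1 and Zbp1 rose in any population. Dhx58, Isg15, Rtp4 and Oas1a were called in no population. The populations differ in their number of libraries and in the spread between them, so counts cannot be ranked across populations.

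**Figure D3:**
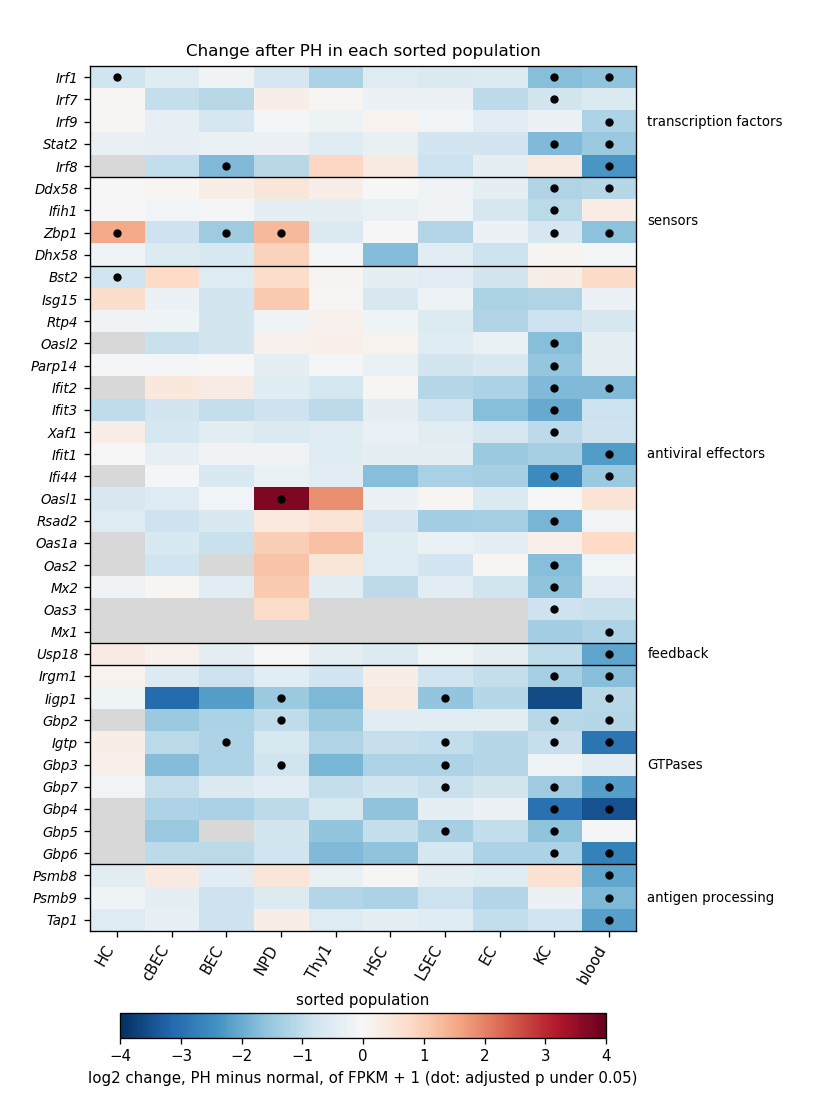
Change in log2(FPKM + 1) after hepatectomy relative to normal liver for the 39 genes, by role, in the 10 populations. Black dots mark adjusted p under 0.05 and grey cells were not tested. Kupffer cells have 23 dots and blood cells 21, all of them falls.

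In Kupffer cells the genes fell across most of the roles. After hepatectomy 23 of 39 genes were lower and none higher, against 36.8% of all genes called and 20.1% called lower, and 31 had every hepatectomy library below both normal libraries (34.7% of all genes). The median change of the 39 was -1.20, beside -0.04 over all genes tested. By role, 7 of 9 GTPases, 10 of 17 effectors, 3 of 5 transcription factors and 3 of 4 sensors fell, while none of the 3 antigen-processing genes was called. In bulk sorts such as these, fewer cells of a type and less RNA per cell cannot be told apart.

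Gbp4, a guanylate-binding protein, was at 34.1 and 31.1 FPKM in normal liver and 4.598, 3.86 and 1.79 FPKM after hepatectomy. The groups were far apart, and the mean fell from 32.6 ± 2.14 FPKM (SD, n = 2) to 3.41 ± 1.46 FPKM (SD, n = 3). On the log2 scale this is -2.99 (SE 0.32, adjusted p = 0.00260). Ifi44 was at 20.6 and 25.5 FPKM in normal liver and 3.72, 3.49 and 2.18 FPKM after hepatectomy, with a change of -2.56 (SE 0.24, adjusted p = 0.00183). Ifi44 is an interferon-induced protein whose hepatectomy libraries all lay below both normal ones. Ifit3, of the family that binds viral RNA, was at 53.6 and 68.3 FPKM in normal liver and 19.7, 20.6 and 6.74 FPKM after hepatectomy and changed by -2.02 (SE 0.48, adjusted p = 0.0255). Rsad2, whose product viperin makes a nucleotide that stops viral polymerases, was at 42.3 and 45.95 FPKM in normal liver and 14.2, 12.4 and 8.47 FPKM after hepatectomy and changed by -1.86 (SE 0.23, adjusted p = 0.00360). In both genes the third hepatectomy library was the lowest. Ifit2 fell by the same order (-1.78), as did Stat2 (-1.77), Oas2 (-1.71), Oasl2 (-1.69) and Mx2 (-1.61). Irf1 was at 194 and 181 FPKM in normal liver and 52.7, 52.5 and 66.4 FPKM after hepatectomy, a change of -1.70 (SE 0.15, adjusted p = 0.00164). The 3 hepatectomy libraries of Irf1 lay close together and far below the normal ones.

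The remaining called genes in Kupffer cells were Gbp2, Gbp5, Gbp6, Gbp7, Igtp, Irgm1, Parp14, Xaf1, Oas3, Ddx58, Ifih1, Zbp1 and Irf7, whose changes ran from -1.61 for Gbp5 to -0.66 for Zbp1. Iigp1 had the lowest value of all, -3.57, from 66.4 and 89.3 FPKM in normal liver and 14.5, 17.3 and 0 FPKM after hepatectomy, and was not called (adjusted p = 0.0833). Other genes had values that hardly moved: Oasl1 was at 32.6 and 30.3 FPKM in normal liver and 31.9, 31.2 and 30.7 FPKM after hepatectomy (log2 change -0.01), and Dhx58 and Gbp3 overlapped between groups. Psmb8 lay above the normal libraries in all 3 hepatectomy libraries, 141 and 150.3 FPKM in normal liver and 248, 253 and 177 FPKM after hepatectomy, and was not called (adjusted p = 0.0522). Irf8 also lay higher without passing, with a change of 0.37 (SE 0.16, adjusted p = 0.128).

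Marker lists moved in the same libraries. The 6 LSEC markers summed to 3240 to 4470 FPKM in normal Kupffer cells and 303.2 to 526.4 FPKM after hepatectomy, with none at 0, and the 6 EC markers to 1125 to 1408 and 284.1 to 516.6 FPKM. The 6 measured Kupffer-cell markers summed to 11100 to 12410 and 26930 to 28270 FPKM. Their part in the falls was not tested. The third hepatectomy library was the lowest for the 39 genes together, with a mean log2 value of 4.09 beside 4.78 and 4.85, and without it 33 genes were called. Without the first or the second normal library the count was 9 or 7. Ddx58, Gbp4, Ifi44, Irf1, Oasl2, Rsad2 and Stat2 were called whichever of the 5 libraries was left out.

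In blood cells 21 of 39 genes were lower after hepatectomy and none higher, where 64.0% of all genes were called and 39.7% were lower. The median change was -1.13, beside -0.31 over all genes tested. By role, 7 of 9 GTPases (median -1.71), 3 of 3 antigen-processing genes (median -2.07), 4 of 5 transcription factors and Usp18 were called lower. So were 2 of 4 sensors and 4 of 17 effectors (median -0.42), which is near or below the share of all genes. Gbp4 was at 112 and 144 FPKM in normal liver and 11.9 and 8.99 FPKM after hepatectomy, and fell from 128 ± 22.2 FPKM (SD, n = 2) to 10.4 ± 2.06 FPKM (SD, n = 2), which is a log2 difference of -3.50 (SE 0.21, adjusted p = 0.000860). Igtp, an immunity-related GTPase, was at 122 and 149 FPKM in normal liver and 15.1 and 19.4 FPKM after hepatectomy, a change of -2.91 (SE 0.20, adjusted p = 0.000967). Every hepatectomy library of both GTPases lay far below the normal ones. Irf8 was at 809 and 539.5 FPKM in normal liver and 114 and 146 FPKM after hepatectomy, a change of -2.34 (SE 0.27, adjusted p = 0.00257). Irf8 is abundant in B cells, monocytes and plasmacytoid dendritic cells. Psmb8 was at 621 and 557 FPKM in normal liver and 116 and 167 FPKM after hepatectomy, a change of -2.07 (SE 0.23, adjusted p = 0.00246).

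Further falls in blood cells were Gbp6 -2.70, Ifit1 -2.22, Gbp7 -2.21, Tap1 -2.18, Usp18 -2.12 and Psmb9 -1.79. Usp18, which removes Isg15 from proteins and damps the type I receptor, was at 50.98 and 49.6 FPKM in normal liver and 8.51 and 13.7 FPKM after hepatectomy. Smaller than all of those came Ifit2, Irgm1, Zbp1, Irf1, Ifi44, Stat2, Mx1, Irf9, Gbp2, Ddx58 and Iigp1. Other effectors had values on the other side and did not pass the test: Bst2 was at 391 and 237 FPKM in normal liver and 487 and 551 FPKM after hepatectomy (adjusted p = 0.0724), and Oas1a at 11.6 and 12.4 FPKM in normal liver and 15.5 and 30.1 FPKM after hepatectomy (adjusted p = 0.0910). Gbp5 overlapped between groups, at 6.26 and 6.17 FPKM in normal liver and 4.81 and 7.43 FPKM after hepatectomy.

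The blood-cell sorts differed strongly in marker lists. The 5 measured T-cell markers summed to 1607 to 1897 FPKM in normal liver and 31.9 to 60.1 FPKM after hepatectomy, the 5 B-cell markers to 544.9 to 785.8 and 17.1 to 46.1, and the 5 NK-cell markers to 1426 to 1580 and 21.6 to 42.7. The 5 plasmacytoid dendritic-cell markers summed to 750.0 to 1306 and 43.4 to 64.4, and the 5 measured monocyte markers to 927.6 to 1296 and 183.2 to 323.5 FPKM. The 6 measured Kupffer-cell markers went the other way and summed to 464.9 to 751.7 FPKM in normal liver and 9266 to 16280 FPKM after hepatectomy, and none of these markers was at 0. Their part in the falls of the interferon-response genes was not tested. The second hepatectomy library decided part of the count, which was 33 without it, and 18 to 25 without each of the others. All called genes but Iigp1, Mx1 and Zbp1 were called whichever of the 4 libraries was left out.

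**Figure D4:**
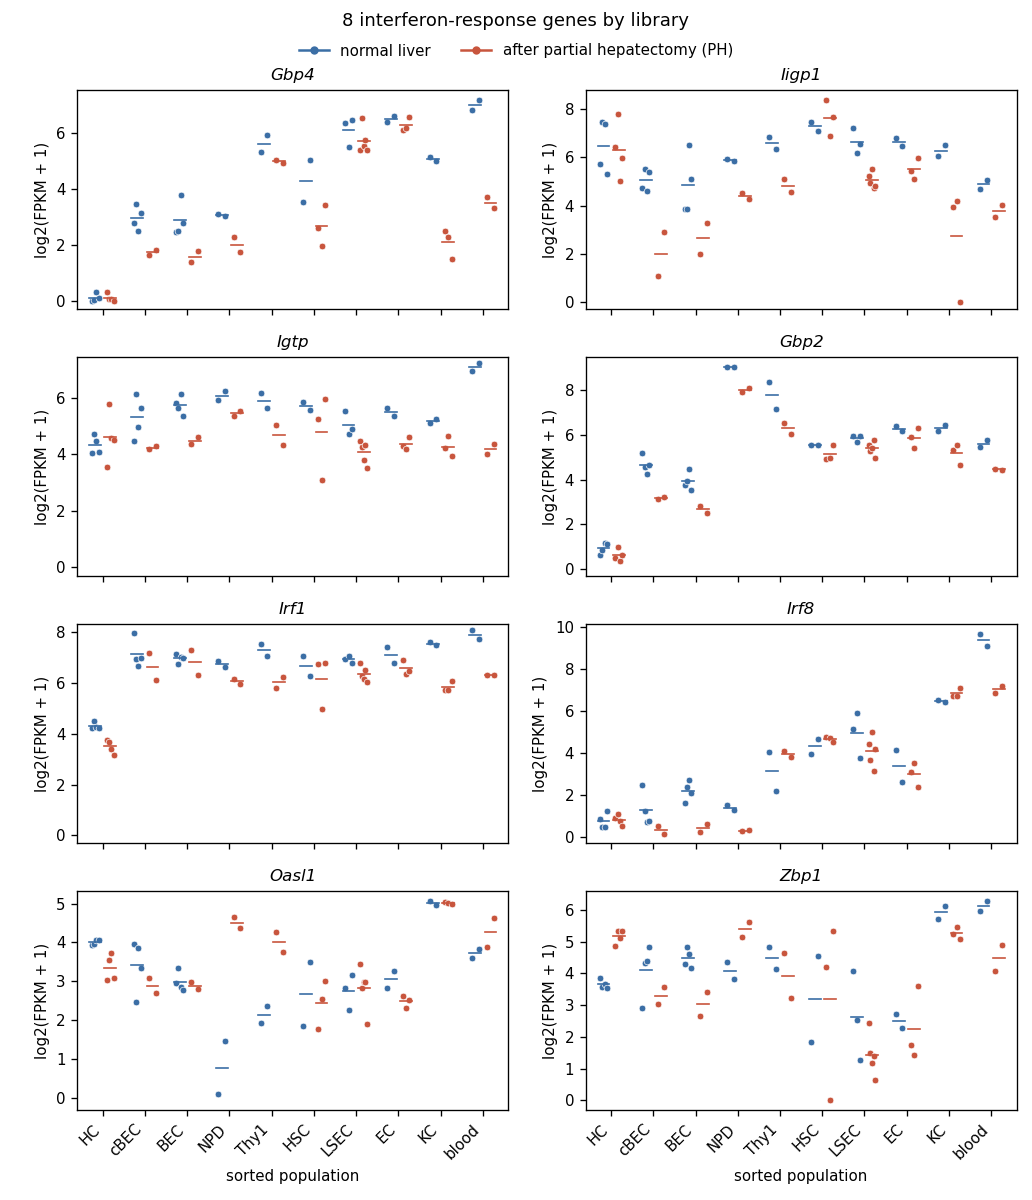
log2(FPKM + 1) in each library for Gbp4, Iigp1, Igtp, Gbp2, Irf1, Irf8, Oasl1 and Zbp1, by population, with normal liver in blue and liver after hepatectomy in red. Gbp4 falls in Kupffer cells and blood cells, where the groups do not overlap, and Oasl1 rises in NPD from 0.0773 and 1.75 FPKM to 24.2 and 19.5 FPKM.

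In LSEC 5 of 37 tested genes were lower after hepatectomy and none higher, against 8.46% of all genes called and 4.31% called lower, and all 5 were GTPases. The median change was -0.54 for the 37 genes, -0.89 for the 9 GTPases and -0.03 for all genes tested. Of the 37, 36 had a change below 0, and 13 had no overlap between groups in that direction (10.5% of all genes). Iigp1 was at 147, 70.7 and 92.9 FPKM in normal liver and 36.5, 29.6, 45.1, 25.6 and 27.4 FPKM after hepatectomy, and fell from 103 ± 39.01 FPKM (SD, n = 3) to 32.8 ± 8.03 FPKM (SD, n = 5), which is a log2 difference of -1.59 (SE 0.26, adjusted p = 0.00670). Gbp5 was at 18.4, 14.04 and 18.1 FPKM in normal liver and 7.35, 5.897, 6.76, 5.496 and 4.77 FPKM after hepatectomy, a change of -1.34 (SE 0.18, adjusted p = 0.00296). Both had every hepatectomy library below every normal one. Gbp3 was at 43.9, 30.97 and 36.4 FPKM in normal liver and 21.4, 19.2, 17.4, 11.8 and 8.77 FPKM after hepatectomy (change -1.24 (SE 0.27, adjusted p = 0.0214)), Igtp at 45.4, 25.4 and 28.7 FPKM in normal liver and 20.99, 18.04, 12.8, 19.1 and 10.6 FPKM after hepatectomy (change -0.98 (SE 0.26, adjusted p = 0.0443)) and Gbp7 at 34.96, 38.6 and 35.5 FPKM in normal liver and 25.7, 15.4, 24.8, 16.2 and 16.4 FPKM after hepatectomy (change -0.89 (SE 0.20, adjusted p = 0.0250)). Gbp4 overlapped between the groups in LSEC, at 80.3, 44.4 and 86.4 FPKM in normal liver and 40.98, 90.96, 45.8, 52.7 and 40.7 FPKM after hepatectomy. Among the 15 tested effectors and the 5 transcription factors none was called. The 6 measured Kupffer-cell markers summed to 5.83 to 127 FPKM in normal LSEC and 2.54 to 12.5 FPKM after hepatectomy, and the 6 LSEC markers to 4972 to 9690 and 1527 to 5584 FPKM. Their part in the falls was not tested. Gbp5 and Iigp1 were called whichever library was left out. The count was 2 without any 1 of the 3 normal libraries or without the fourth hepatectomy library, 3 without the fifth, and 6 to 7 without the others.

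The EC sort had 37 genes tested and none called. Only 3 of 12064 genes were called in this comparison (0.0249%), while 1297 had an unadjusted p under 0.05. Of the 37 interferon-response genes, 23 had an unadjusted p under 0.05, all with a value below 0, and 29 had every hepatectomy library below both normal ones, against 12.9% of all genes. The median change was -0.76, beside 0.02 over all genes. Ifi44 was at 52.7 and 44.9 FPKM in normal liver and 20.6, 14.4 and 21.7 FPKM after hepatectomy, a change of -1.34 (SE 0.23, adjusted p = 0.181). Igtp was at 49.1 and 40.2 FPKM in normal liver and 18.7, 17.1 and 23.5 FPKM after hepatectomy, a change of -1.14 (SE 0.21, adjusted p = 0.194). Neither passed, although the libraries of both genes were separate. The 6 LSEC markers summed to 2672 to 5811 FPKM in normal EC and 1579 to 3505 FPKM after hepatectomy, and the 6 measured Kupffer-cell markers to 9.77 to 15.4 and 3.67 to 176.4 FPKM, none of them at 0 in either group, and their part was not tested. No gene was called when any 1 library was left out.

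The biliary sorts gave 3 called genes in BEC and none in cBEC. In BEC 35 genes were tested and 3 were lower (1.81% of all genes were called and 1.57% lower), with a median change of -0.68 beside -0.12 for all genes, and 21 had no overlap in that direction (22.0% of all genes). Irf8 was at 2.09, 4.12, 5.43 and 3.18 FPKM in normal liver and 0.169 and 0.505 FPKM after hepatectomy, a change of -1.78 (SE 0.33, adjusted p = 0.0385). Zbp1 was at 18.6, 27.2, 23.4 and 16.9 FPKM in normal liver and 5.35 and 9.598 FPKM after hepatectomy (change -1.43 (SE 0.27, adjusted p = 0.0389)) and Igtp at 55.6, 49.03, 68.97 and 39.4 FPKM in normal liver and 19.4 and 23.6 FPKM after hepatectomy (change -1.25 (SE 0.23, adjusted p = 0.0385)). All 3 had separate groups. Irf8 is a leukocyte gene, and the 6 measured Kupffer-cell markers summed to 57.0 to 247.1 FPKM in normal BEC and 0.183 to 3.29 FPKM after hepatectomy, with Adgre1 and Timd4 then at 0. The 6 LSEC markers summed to 78.4 to 313.8 and 0.692 to 4.25 FPKM. The part of these cells in the 3 falls was not tested. No gene was called without either 1 of the hepatectomy libraries. The count was 8 without normal library 2, 4 without library 3, 2 without library 4 and 1 without library 1, and each of Irf8, Zbp1 and Igtp lost its call in 3 of the 6 cases. None of the 3 was called with no filter on low values or with quantile normalization.

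In cBEC none of 37 tested genes was called (0.0681% of all genes were, 0.0227% lower and 0.0454% higher), and 10 had an unadjusted p under 0.05, among 1346 of all genes. Gbp2 was at 35.9, 22.7, 18.2 and 24.2 FPKM in normal liver and 7.899 and 8.49 FPKM after hepatectomy, a change of -1.47 (SE 0.26, adjusted p = 0.158). Iigp1 was at 25.2, 45.1, 23.5 and 41.1 FPKM in normal liver and 1.08 and 6.42 FPKM after hepatectomy, a change of -3.09 (SE 0.53, adjusted p = 0.188). Both lay lower in both hepatectomy libraries, as did 8 of the 9 GTPases, whose median change was -1.24, and 15 of the 37 genes (14.4% of all genes). The 6 measured Kupffer-cell markers summed to 0.338 to 60.5 FPKM in normal cBEC and were all at 0 after hepatectomy, and the 5 mesothelial markers summed to 140.1 to 458.0 and 58.8 to 72.8 FPKM. Their part was not tested. Without the first normal library 1 gene was called.

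NPD, like hepatocytes, had calls in both directions. Of 38 tested genes 3 were lower and 2 higher, beside 15.2% of all genes called, 5.51% lower and 9.65% higher, so the count is near the background. With quantile normalization 7 were lower and 2 higher. The lower genes were GTPases. Iigp1 was at 60.8 and 56.3 FPKM in normal liver and 22.1 and 18.4 FPKM after hepatectomy, a change of -1.49 (SE 0.17, adjusted p = 0.0114). Gbp2 was at 522 and 528 FPKM in normal liver and 243 and 272 FPKM after hepatectomy, a change of -1.03 (SE 0.19, adjusted p = 0.0276), and remained the highest of all populations. Gbp3 was at 81.02 and 71.5 FPKM in normal liver and 40.9 and 45.7 FPKM after hepatectomy, a change of -0.80 (SE 0.17, adjusted p = 0.0365). All 9 GTPases had both hepatectomy libraries below both normal ones (median -0.80), within 18 of 38 genes (27.6% of all genes). The 2 genes that rose were an effector and a sensor. Oasl1, which limits translation of Irf7, was at 0.0773 and 1.75 FPKM in normal liver and 24.2 and 19.5 FPKM after hepatectomy, and rose from 0.915 ± 1.19 FPKM (SD, n = 2) to 21.9 ± 3.28 FPKM (SD, n = 2), which is a log2 difference of 3.72 (SE 0.48, adjusted p = 0.0151). Zbp1 was at 19.6 and 13.02 FPKM in normal liver and 34.2 and 48.5 FPKM after hepatectomy, a change of 1.30 (SE 0.27, adjusted p = 0.0389). The normal values of Oasl1 were near or under 1 FPKM, and both hepatectomy libraries were far above them. Normal hepatocytes averaged 15.05 FPKM of Oasl1, and none of its values outside hepatocytes was 0. Whether the zeros of hepatocyte transcripts in other sorts bear on the low normal values of Oasl1 was not tested. With no filter on low values its adjusted p was 0.0504.

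The 16 tested effectors in NPD had a median change of 0.29, beside 0.09 for all genes. Of these effectors, 6 had both hepatectomy libraries above both normal ones and 4 had both below (36.9% and 27.6% of all genes). Isg15, Oas2 and Mx2 were among the 6 and did not pass. Isg15 was at 49.1 and 23.5 FPKM in normal liver and 61.6 and 81.2 FPKM after hepatectomy (limma adjusted p = 0.124). In the same NPD libraries the 6 measured Kupffer-cell markers summed to 82.4 to 179.8 FPKM in normal NPD and 4.74 to 8.81 FPKM after hepatectomy, and the 5 mesothelial markers to 5468 to 6024 and 3681 to 4220 FPKM, with none at 0. Their part was not tested. The normal NPD libraries decided much of the count. Without normal library 1 or 2 it was 21 or 19, and without hepatectomy library 1 or 2 it was 2 or 1. Oasl1 was called in each case.

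Thy1 cells and stellate cells gave no call. In Thy1 cells 37 genes were tested and 0.00747% of all genes were called, while 13 of the 37 and 2417 of all genes had an unadjusted p under 0.05. All 9 GTPases had both hepatectomy libraries below both normal ones (median -1.47), within 19 of 37 genes (28.7% of all genes). Oasl1 was at 2.796 and 4.15 FPKM in normal liver and 18.3 and 12.6 FPKM after hepatectomy, a change of 1.87 (SE 0.33, adjusted p = 0.133), and Iigp1 at 114 and 81.7 FPKM in normal liver and 33.1 and 22.3 FPKM after hepatectomy, a change of -1.79 (SE 0.33, adjusted p = 0.136). As in NPD, Oasl1 lay higher and Iigp1 lower in both hepatectomy libraries, but neither passed. Kupffer-cell markers (6 measured) summed to 33.6 to 83.2 FPKM in normal Thy1 cells and 1.18 to 5.45 FPKM after hepatectomy, and their part was not tested.

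In stellate cells 37 genes were tested, 0.00853% of all genes were called, and 1 of the 37 and 995 of all genes had an unadjusted p under 0.05. The median change was -0.38, and 4 of 37 genes had separate groups (11.7% of all genes). Gbp4 was at 10.5 and 31.4 FPKM in normal liver and 5.11, 2.89 and 9.63 FPKM after hepatectomy, a change of -1.61 (SE 0.62, adjusted p = 0.535). Gbp5 was at 16.8 and 31.4 FPKM in normal liver and 7.56, 11.5 and 16.3 FPKM after hepatectomy, a change of -0.97 (SE 0.45, adjusted p = 0.611). The hepatectomy libraries lay below the normal ones for both. They differed widely among themselves, with mean log2 values of the 39 genes of 4.60, 3.61 and 5.40. Iigp1 overlapped, at 179 and 138 FPKM in normal liver and 333, 116 and 205 FPKM after hepatectomy. Kupffer-cell markers (6 measured) summed to 56.6 to 747.0 FPKM in normal stellate cells and 0.515 to 43.2 FPKM after hepatectomy, and their part was not tested. No gene was called when any 1 library of either sort was left out.

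In hepatocytes 27 genes passed the filter, and 2 were lower and 1 higher, beside 6.19% of all genes called, 4.41% lower and 1.78% higher. With quantile normalization 1 was lower and 1 higher, and with upper-quartile scaling 1 was called, higher. Zbp1 was at 13.6, 10.9, 11.8 and 10.6 FPKM in normal liver and 28.1, 39.5, 33.9 and 39.5 FPKM after hepatectomy, and rose from 11.7 ± 1.32 FPKM (SD, n = 4) to 35.3 ± 5.43 FPKM (SD, n = 4), which is a log2 difference of 1.50 (SE 0.19, adjusted p = 0.00201). All 4 hepatectomy libraries lay above all 4 normal ones. Irf1 was at 17.98, 21.8, 18.3 and 17.9 FPKM in normal liver and 12.7, 11.9, 9.67 and 8.11 FPKM after hepatectomy (change -0.80 (SE 0.20, adjusted p = 0.0400)), and Bst2 at 312, 327, 290.4 and 333 FPKM in normal liver and 159.6, 195, 188 and 189 FPKM after hepatectomy (change -0.79 (SE 0.18, adjusted p = 0.0292)). Both fell without overlap. Zbp1 was called whichever library was left out, and it was the only gene called in 7 of the 8 cases, that is without any 1 library but the first of hepatectomy. In a single fit of all groups its adjusted p was 0.203, and no gene was called. The other genes varied within groups: Iigp1 was at 51.3, 178, 168 and 38.97 FPKM in normal liver and 86.7, 225, 31.7 and 61.2 FPKM after hepatectomy, and Isg15 at 18.8, 20.3, 18.9 and 19.02 FPKM in normal liver and 11.6, 81.9, 35.8 and 30.4 FPKM after hepatectomy. The second hepatectomy library was high for both. In hepatocytes the 6 measured Kupffer-cell markers summed to 0.09 to 4.63 FPKM in normal liver and 2.69 to 106.8 FPKM after hepatectomy, and their part was not tested. The median of the 27 changes was -0.10, beside -0.07 for all genes tested.

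**Figure D5:**
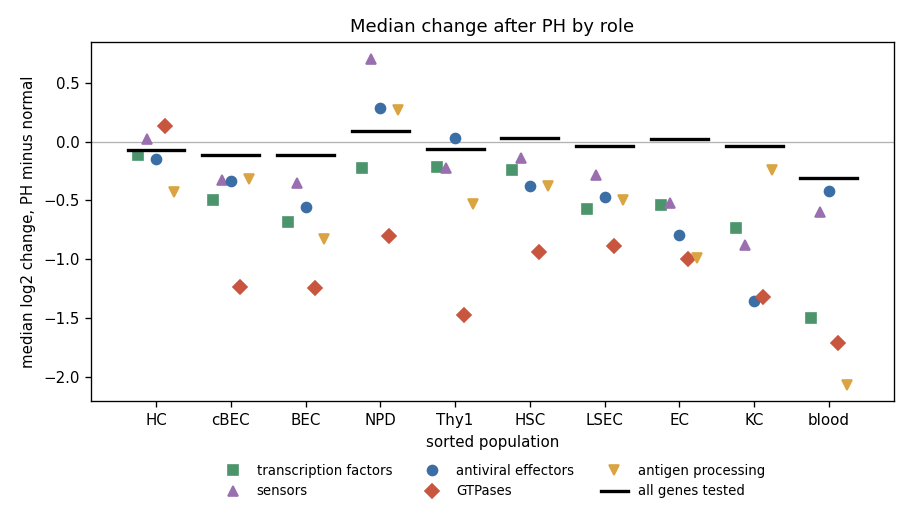
Median log2 change after hepatectomy of the genes tested in each role, by population, with a black line at the median of all genes tested. The median of the GTPases is -1.71 in blood cells, -1.47 in Thy1 cells, -1.32 in Kupffer cells and 0.13 in hepatocytes.

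The responses themselves were compared by interaction terms in a fit of all 20 groups. The response to hepatectomy differed among the 10 populations for 16 of 39 genes, where 47.8% of all genes tested were called, so the share is near the background. These were Oasl1 (adjusted p = 9.09e-07), Gbp4 (2.83e-06), Psmb8 (0.000204), Ifit2, Ddx58, Irgm1, Oas3, Irf8, Tap1, Gbp5, Oasl2, Irf9, Oas2, Usp18, Igtp and Gbp2. Without the second hepatectomy library of stellate cells the count was 24. Between LSEC and Kupffer cells, 2 of 39 responses differed, beside 8.69% of all genes (6.65% with the higher change in LSEC and 2.05% in Kupffer cells). The change of Gbp4 was 2.61 higher in LSEC than in Kupffer cells (SE 0.50, adjusted p = 0.000266), from -0.38 in LSEC and -2.99 in Kupffer cells. The change of Ddx58 differed by 1.08 (SE 0.35, adjusted p = 0.0429), from -0.13 in LSEC and -1.21 in Kupffer cells. Gbp4 was called whichever of the 13 libraries was left out, while Ddx58 lost its call in 10 of the 13 cases, all but those without normal LSEC library 3 or hepatectomy LSEC libraries 4 or 5. Between LSEC and EC none of 39 responses differed (0.345% of all genes did, 0.103% with the higher change in LSEC and 0.242% in EC). The lowest p belonged to Ifit1, with a difference of 1.13, and Ifit3, with 0.92, both at an adjusted p of 1. Between NPD and cBEC only the response of Oasl1 differed, by 4.25 (SE 0.60, adjusted p = 4.34e-06, 3.79% of all genes called).

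A list of 84 further genes of the interferon pathway, all found in the table, places these values beside their ligands, receptors and signalling proteins. Of the 10 ligands, Ifna1, Ifna5, Ifnl2 and Ifnl3 were listed at 0 in every library, and Ifnb1 reached at most 0.106 FPKM, in a normal Kupffer-cell library. Ifnk, Ifna2, Ifna4 and Ifne stayed near or under 1 FPKM. Ifng was measured mainly in blood cells, with a range of 26.5 to 37.7 FPKM in the 2 normal libraries and 0.109 to 0.665 FPKM in the 2 hepatectomy libraries. Those groups did not overlap, and Ifng had the largest fall of the list in blood cells (log2 change -4.58, limma adjusted p = 0.000939). The T-cell and NK-cell marker sums given above for blood cells were lower in the same libraries, and their part was not tested.

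Of the 6 receptor genes, Ifngr1, the ligand-binding chain for interferon-gamma, averaged 540.9 ± 139.9 FPKM (SD, n = 2) in normal blood cells, 267.5 ± 48.6 (SD, n = 2) in Kupffer cells and 6.16 ± 0.698 (SD, n = 4) in hepatocytes. Ifnlr1, the specific chain of the interferon-lambda receptor, had a different distribution, with 11.6 ± 1.44 FPKM (SD, n = 4) in normal cBEC, 10.1 ± 1.0 (SD, n = 4) in BEC, 6.41 ± 0.243 (SD, n = 2) in NPD and 3.55 ± 1.26 (SD, n = 2) in Thy1 cells. Ifnlr1 averaged under 1 FPKM in normal hepatocytes, EC, LSEC, Kupffer cells, stellate cells and blood cells. The group means of Ifnar1, a chain of the type I receptor, lay between 6.57 FPKM in hepatocytes and 52.3 FPKM in blood cells in normal liver, and those of Ifnar2, its partner, between 39.4 FPKM in BEC and 208.9 FPKM in Kupffer cells. In normal liver 72 of 73 tested genes of the list differed among populations, and after hepatectomy 67 of 70, where 93.3% and 90.1% of all genes did. The response to hepatectomy differed for 39 of 74, beside 47.8% of all genes.

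In Kupffer cells 31 of 67 tested genes of the list fell after hepatectomy and 3 rose (20.1% and 16.7% of all genes), with a median change of -0.60. The falls took in, among others, 3 of 4 further GTPases, 8 of 12 interferon-gamma chemokine and class I genes, 9 of 24 further effectors, 4 of 12 genes of sensing, 2 of 5 receptors and 1 of 5 negative regulators. Cxcl9, a chemokine for T cells that interferon-gamma induces, averaged 54.6 ± 18.7 FPKM (SD, n = 2) in normal liver and 2.43 ± 1.22 FPKM (SD, n = 3) after hepatectomy. Cxcl10, another ligand of the same receptor, averaged 141.1 ± 17.4 and 10.8 ± 3.0 FPKM (SD, n = 2 and 3). Their log2 changes were -4.04 and -3.61, with adjusted p of 0.00179 and 0.00138 in limma. Psme2, a proteasome activator subunit, rose by 1.04 on the log2 scale and Irf5 by 0.60.

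In LSEC 10 of 62 genes of the list fell and 2 rose (4.31% and 4.15% of all genes). Cxcl9 averaged 73.7 ± 41.8 FPKM (SD, n = 3) in normal LSEC and 2.08 ± 1.42 FPKM (SD, n = 5) after hepatectomy, a log2 change of -4.51 (limma adjusted p = 0.00185), and Tgtp2, an immunity-related GTPase, changed by -1.84. Tmem173, the adaptor for cytosolic DNA also named Sting, rose by 0.97 and Stat3 by 0.60. In blood cells 40 of 71 fell and 13 rose (39.7% and 24.3% of all genes), including 7 of 7 further GTPases and 9 of 12 chemokine and class I genes among the falls. Nlrc5, the transactivator of class I genes, changed by -3.08 there, while Parp12 rose by 2.56 and Socs3, an inhibitor of cytokine receptors, by 2.47. In NPD 5 of 68 fell, led by Ifitm1 (-2.26) and Tgtp2 (-1.38), and 4 rose, led by Tmem173 (1.85) and Ifi204 (1.52), counts near those of all genes (5.51% and 9.65%). In hepatocytes 3 of 51 fell, among them Irf5 (-1.54) and Cxcl9 (-1.47), also near the share of all genes (4.41%). None was called of 64 in EC, 64 in stellate cells, 69 in Thy1 cells and 65 in cBEC. Of all genes, 0.0249%, 0.00853%, 0.00747% and 0.0681% were called there. In these sorts 21, 7, 17 and 10 genes of the list had an unadjusted p under 0.05 in limma. Among all genes tested, 1297 of 12064, 995 of 11729, 2417 of 13389 and 1346 of 13225 did.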

How the data were processed

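The study deposited RNA-seq of cell populations sorted from mouse liver as 1 table of FPKM values, made by the authors with 1 column per library and rows of RefSeq transcripts. Per the submitters' processing notes, CASAVA 1.8.2, Bowtie 1.0.0 and build mm9 were used; their roles, the counter, the annotation and the handling of strand and shared reads are not given in the sources used here. Groups were taken from the titles, and 0 columns of values were unused. 1 library titled cBEC after hepatectomy is tagged as normal and 1 Kupffer-cell library lacks a cell type tag; both were kept as titled. The 39 genes, their roles, the pathway and marker lists and the tests were chosen with earlier results of these data known.

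The table holds 36141 rows and 24478 symbols. Where a symbol has several rows, the most abundant over all libraries was used. Depth was estimated, roughly and for no test, from the steps between low values: about 4.8 to 49.0 (in units of 1e6 fragments) in 50 libraries. Values were analysed as log2(FPKM + 1) in limma 3.58.1 (R 4.3.3), with a trended, robust empirical Bayes variance, and p-values were adjusted by Benjamini-Hochberg over all genes of at least 1 FPKM in as many libraries as the smallest group compared. A gene was called at an adjusted p under 0.05. Hepatectomy was compared with normal liver within each population. Populations were compared in a fit of all normal groups or of all hepatectomy groups, and responses in a fit of all 20 groups.

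In each comparison the called genes are named with values, up to 10 in each direction by size, first those with a change of at least 1 and no overlap, and where none was called the 2 with the smallest p. Pathway genes are given as counts, with up to 2 called genes named per direction. The results of the pathway list in BEC, and of its kinases and STATs by count in Kupffer cells, are not reported here. A few uncalled genes, the levels in normal liver and the ligands and receptors were named after their values were seen. Alternatives tried were quantile normalization, upper-quartile scaling, a pseudocount of 0.1, leaving out the filter, only genes under 10 FPKM in both hepatocyte groups, the mean over a symbol's rows, a single fit, the replicate number as a block, and leaving out each library. The test was checked on simulated data: of 200 genes given a log2 difference of 2, it called 160 in Kupffer cells (11835 genes tested), 187 in LSEC (11501), 151 in EC (12064), 169 in hepatocytes (10029), 148 in cBEC (13225), 165 in BEC (12851), 108 in blood cells (12819), 85 in NPD (13024) and 0 in stellate cells (11729) and Thy1 cells (13389). Figures were drawn with matplotlib 3.10.9 in Python 3.11.15.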

Additional observations from a re-analysis of the deposited data

Results flagged for a closer look

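1 of 4 normal BEC libraries stood apart in the mean log2(FPKM + 1) of the 9 GTPases: the third was at 4.31, beside 3.17 to 3.35 in the others. Irf1 in normal hepatocytes was at 21.8 FPKM in the second library, beside 17.9 to 18.3 FPKM in the others. These are 2 of 49 group values examined, where about 2.5 would be set apart by chance.

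Responses to hepatectomy differed between populations by interaction tests in limma. The change of Gbp4 was 2.61 higher in LSEC than in Kupffer cells, and that of Ddx58 1.08 higher, where 8.69% of all genes differed. Ddx58 lost its call in 10 of the 13 cases with 1 library left out. The change of Oasl1 was 4.25 higher in NPD than in cBEC, where 3.79% of all genes differed. The 2 and 1 of 39 genes called lie below those shares. Across all 10 populations 16 of the 39 responses differed by the F test, beside 47.8% of all genes tested.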

How the results depend on the processing

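The counts of called genes after hepatectomy moved as follows. In Kupffer cells (23) and EC (0) no change of setting moved the count by over 1.5 times. In hepatocytes (3) it was 1 with upper-quartile scaling and 0 in a single fit of all groups. It was 0 among the 12 genes tested under 10 FPKM in both hepatocyte groups. That limit drops genes by construction, among them Bst2, Irf1 and Zbp1, the 3 called in hepatocytes, so their calls were not retested. In LSEC (5) it was 2 without a filter, 8 with quantile normalization, 3 with upper-quartile scaling, 3 under the hepatocyte limit and 2 in the single fit. In BEC (3) it was 6 with a pseudocount of 0.1 and 0 without a filter or with quantile normalization. In NPD (5) it was 1 without a filter, 9 with quantile normalization, 3 under the hepatocyte limit and 2 in the single fit. In blood cells (21) it was 11 under the hepatocyte limit. The single fit gave 4 in stellate cells, 6 in Thy1 cells and 4 in cBEC, where the separate fits gave 0. Under the hepatocyte limit, which tests 24 genes or fewer, the counts were 24 among populations of normal liver, 11 between blood and Kupffer cells, 6 between Kupffer cells and LSEC, 20 between BEC and hepatocytes, 10 for responses differing among populations and 0 for NPD against cBEC, which had 3 with a pseudocount of 0.1. The hepatocyte limit also drops Oasl1, the only gene called for NPD against cBEC, so it could not retest that call. LSEC against Kupffer-cell responses gave 1 with a pseudocount of 0.1, quantile normalization or upper-quartile scaling. Between BEC and hepatocytes, quantile normalization turned Dhx58 to -0.65, Gbp3 to -0.25, Ifih1 to -0.10, Ifit3 to -0.66 and Irf8 to -0.11, and upper-quartile scaling turned Dhx58 to -0.078. Apart from the construction of each setting the cause was not tested. Leaving out each library in turn gave ranges of 1 to 3 in hepatocytes, 2 to 7 in LSEC, 7 to 33 in Kupffer cells, 0 to 1 in cBEC, 0 to 8 in BEC, 1 to 21 in NPD and 18 to 33 in blood cells, and 0 throughout in EC, stellate and Thy1 cells. The ranges were 33 to 38 for populations after hepatectomy, 12 to 24 for differing responses, 10 to 11 between blood and Kupffer cells, 7 to 11 between Kupffer cells and LSEC, 18 to 24 between LSEC and BEC, 29 to 32 between BEC and hepatocytes and 1 to 3 for LSEC against Kupffer-cell responses. The median change in hepatocytes ranged from -0.40 to 0.11. Same-numbered libraries correlated between -0.65 and 0.50 in their deviations from the group means. Differently numbered libraries were not compared, so these values cannot decide whether replicate numbers pair the libraries. With the replicate block the counts were 1 in hepatocytes, 0 in LSEC, 33 in Kupffer cells, 14 in BEC, 1 in cBEC, 3 in Thy1 cells, 7 in NPD and 24 in blood cells.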

Other observations

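Hepatocyte libraries differed within groups over the 39 genes. The mean log2(FPKM + 1) was 2.36, 2.88, 2.87 and 2.38 in normal hepatocyte libraries 1 to 4. After hepatectomy the second library was at 3.16 and the others between 2.24 and 2.45. Iigp1 was at 51.3, 178, 168 and 39 FPKM in the 4 normal libraries and 86.7, 225, 31.7 and 61.2 FPKM in the 4 hepatectomy libraries, while Zbp1 lay higher in 4 of 4 hepatectomy libraries than in any normal one. Igtp was at 53.8 FPKM in the second hepatectomy library.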
